A study of Homo sapiens with 6 samples.

Results

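The 36 genes described here encode the enzymes by which mitochondria burn fatty acids and ketone bodies, the tricarboxylic acid (TCA) cycle that takes up the acetyl-CoA they yield, and a few enzymes that feed the cycle from glutamate and pyruvate. They were chosen by gene symbol, all 36 were found among the 37202 genes of the deposited table, and all 36 entered the test. RNA had been sequenced with strand-specific, paired-end libraries from HK2, a cell line derived from the proximal tubule of a normal human kidney. The NR3C2-OE group held 3 libraries from cells transfected, by lipofection, with a plasmid for overexpression of NR3C2, the gene of the mineralocorticoid receptor, and the Control group held 3 libraries whose genotype is given as normal. Whether the Control cells were given an empty plasmid is not stated in the sources used here, nor is whether a ligand of the receptor was present or whether the libraries of a group came from separate cultures. P-values therefore reflect only how much these libraries vary, and that variation may be technical.

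Proximal tubule cells make most of their ATP by oxidizing fatty acids, and they also take up ketone bodies. Long-chain fatty acids enter the mitochondrion as carnitine esters, are shortened in a cycle of oxidation, hydration, oxidation and cleavage, and leave as acetyl-CoA. Ketone bodies are turned back into acetyl-CoA by a short route whose committed step is catalysed by OXCT1, and the TCA cycle oxidizes the acetyl-CoA and reduces the carriers that feed the respiratory chain.

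Levels are given as FPKM, a measure of fragments that is scaled to transcript length and library size, and changes as log2 fold changes of NR3C2-OE over Control, fitted with edgeR on the estimated counts that the authors deposited beside the FPKM. A gene was called at a Benjamini-Hochberg adjusted p below 0.05 over the 21509 genes tested. NR3C2 itself had 12.1, 6.95 and 7.41 FPKM in the NR3C2-OE libraries, against 5.97, 6.26 and 5.16 in the Control libraries. The groups did not overlap, and the difference, 1.597-fold or a log2 fold change of 0.68 (SE 0.232), was not called (edgeR adjusted p = 0.486). NR3C2-OE library 1 held the highest level and the other 2 lay just above Control. The totals of estimated counts ran from 77737375 to 132533971 per library. Of the proximal tubule markers, CDH6 (78.5 to 99.6 FPKM over the 6 libraries) and GGT1 were abundant, while CUBN, SLC34A1 and AQP1 stayed at or below 0.143 FPKM in every library. Of 8 genes of kidney epithelium in culture, 7 had a mean of 1 FPKM or more, among them PAX8 (123 to 157 FPKM) and KRT8 (193 to 205), and PAX2 was at 0.127 FPKM or less in every library. Of 12 proximal tubule markers looked for, 8 were in the table, and 3 of the 8 had a mean of 1 FPKM or more. For other nephron segments 4 of 7 markers were in the table, for leukocytes 3 of 5 and for fibroblasts 6 of 7. The summed FPKM of the 8 proximal tubule markers in the table was 159, 148 and 136 in NR3C2-OE and 97.4, 100.05 and 130.5 in Control, a difference carried mostly by GGT1 (51.1 to 56.7 against 16.3 to 45.5). That of 3 leukocyte markers was 24.3 to 31.0 in NR3C2-OE and 21.1 to 21.5 in Control, nearly all of it CD68, with LYZ and CD14 at 0.365 FPKM or less throughout. The 6 fibroblast markers summed to 14.0 to 14.9 FPKM in NR3C2-OE and 12.6 to 15.5 in Control, with 3 of the 6 at a mean of 1 FPKM or more: COL1A1 (6.51 to 8.65 FPKM over the 6 libraries), LUM (4.39 to 6.62) and DCN (0.973 to 1.92). The other 3, PDGFRA, PDGFRB and COL3A1, were at 0.0675 FPKM or less in every library. The 4 endothelial markers summed to 0.146 FPKM or less and the 4 markers of other nephron segments to 0.376 FPKM or less. The part of the GGT1 and CD68 differences in the other results was not tested. In bulk RNA, fewer cells that express a gene and less RNA of it per cell cannot be told apart.

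Most genes of fatty acid oxidation, ketone body use and the TCA cycle were expressed at closely similar levels with and without the NR3C2 plasmid. OXCT1 was about 30% lower in the counts, and GLUD1 varied widely within Control. For a few others, named below, the 95% interval of the log2 fold change reached beyond 0.5 in size. In edgeR's test 0 of the 36 genes were called in either direction, where 0.0279% of all tested genes were called. At an unadjusted p below 0.05, 1 of the 36 was higher in NR3C2-OE (SUCLG2) and 3 were lower (OXCT1, ECI2 and DLD), against 4.43% of all tested genes higher and 4.76% lower. DESeq2's Wald test called 1 of the 36, OXCT1, on the lower side, where it called 0.828% of all tested genes, and limma-voom and limma on log2 FPKM called 0. On the FPKM scale the groups did not overlap for 2 of the 36 on the higher side (HADH and SUCLG2) and for 1 on the lower side (OXCT1), where 9.38% and 6.65% of all tested genes did so. On the CPM scale, the estimated counts scaled to library size, they did not overlap for 1 on the higher side (SUCLG2) and for 5 on the lower side (OXCT1, ECI2, OGDH, DLD and FH), where 7.96% and 8.75% of all tested genes did so. The median log2 fold change of the 36 genes was -0.0018, that of all tested genes 0.00071, and the signs were even, with 18 positive and 18 negative.

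The 95% intervals given here reflect only how much these libraries vary, and that variation may be technical. The 95% interval of the log2 fold change lay within 0.5 on either side of 0 for 29 of the 36 genes (80.6%), where it did so for 47.6% of all tested genes. All 36 had 501 or more estimated counts in every library, whereas the tested genes include some with far fewer. The share among genes of similar level was not computed. Besides OXCT1 (-0.65 to -0.39), the 6 genes whose intervals reached beyond 0.5 in size were SLC25A20, HADH, BDH1, IDH3A, DLST and GLUD1. The interval of DECR1, -0.45 to 0.45, was wide but lay inside these limits. The summed FPKM of all 36 genes was 1235, 1247 and 1175 in NR3C2-OE and 1196, 1237 and 1245 in Control, so the groups overlapped.

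**Figure D1:**
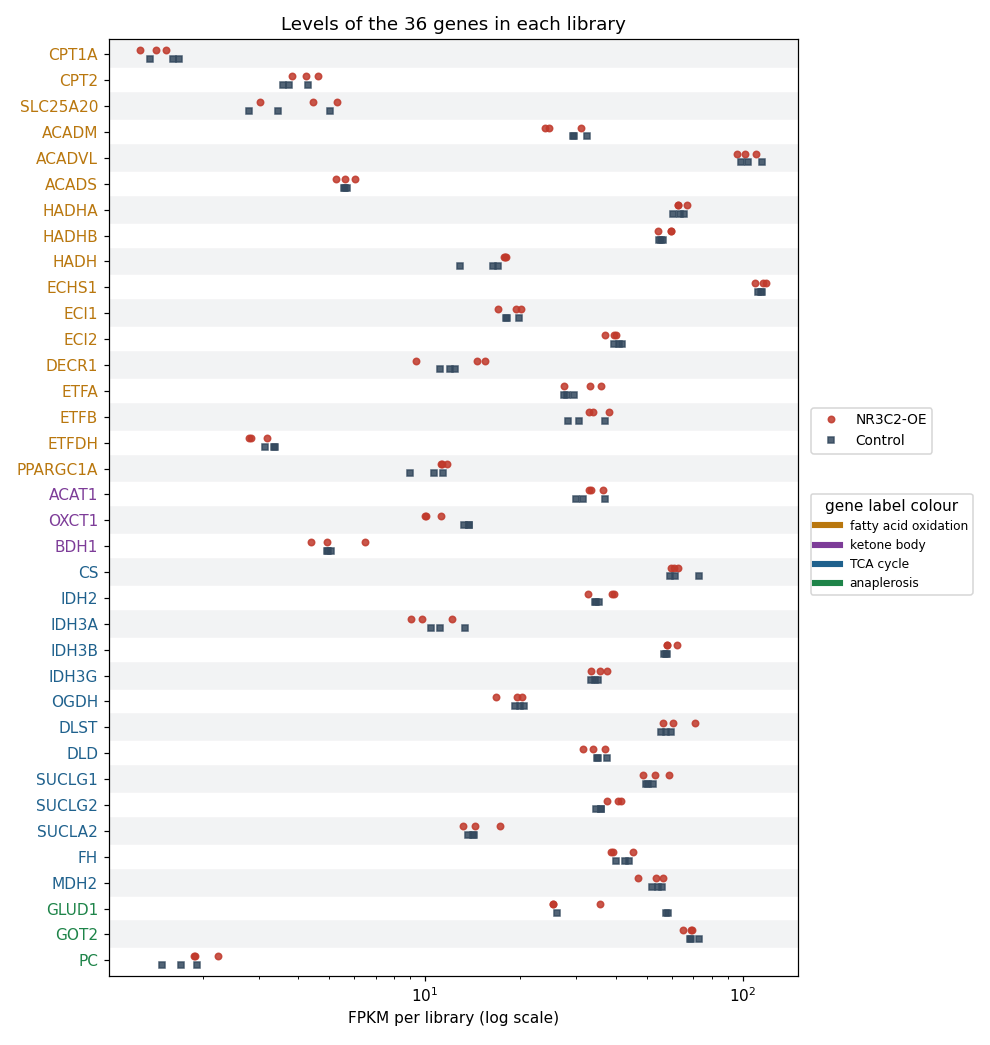
FPKM of each of the 36 genes in each library, on a log scale, with NR3C2-OE as circles above Control as squares in each row and gene names coloured by branch. The circles and squares of most rows overlap; those of OXCT1, HADH and SUCLG2 do not, and GLUD1 splits within Control.

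**Figure D2:**
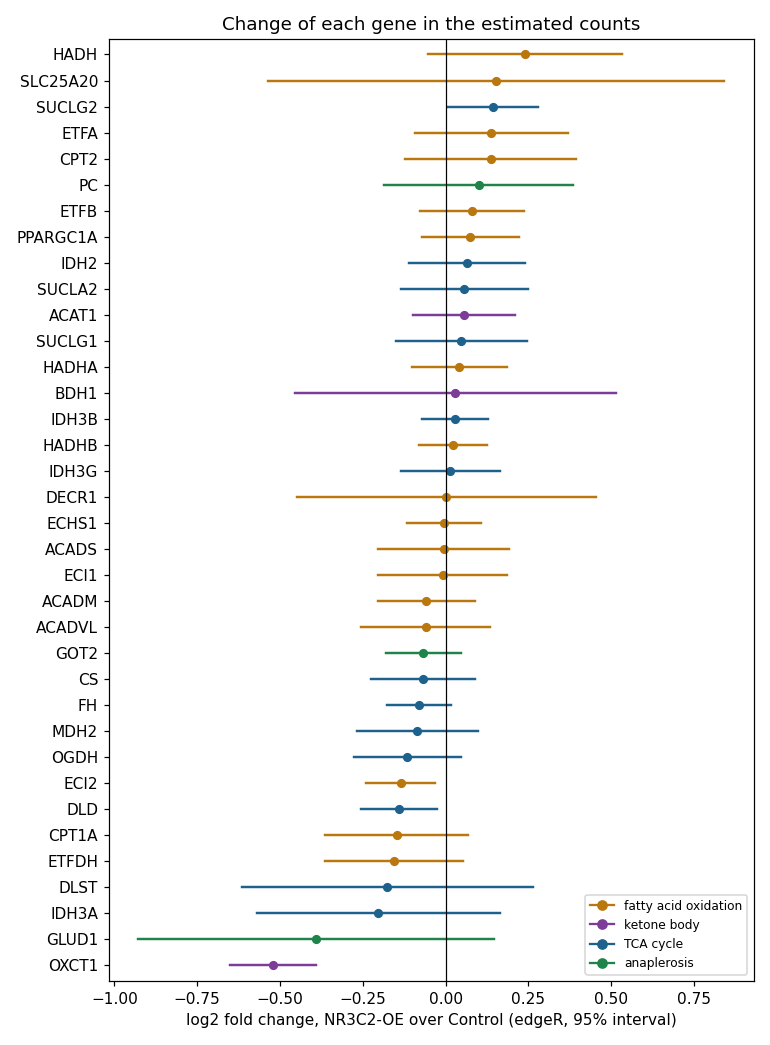
Log2 fold change of NR3C2-OE over Control for each gene, from edgeR on the estimated counts, as points with 95% intervals and sorted from the highest (HADH, 0.24) to the lowest (OXCT1, -0.52). The intervals of OXCT1, DLD, ECI2 and SUCLG2 do not include 0, and those of the other 32 genes do.

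OXCT1 (ENSG00000083720) encodes succinyl-CoA:3-oxoacid CoA transferase, the mitochondrial enzyme that transfers CoA from succinyl-CoA to acetoacetate and so commits ketone bodies to oxidation. It had 10.1, 10.00 and 11.2 FPKM in the NR3C2-OE libraries, against 13.8, 13.3 and 13.8 in the Control libraries. Every NR3C2-OE library lay below every Control library, and the means were 10.5 ± 0.684 and 13.6 ± 0.265 FPKM (SD, n = 3 each). In CPM the gap was wider, with 34.3, 33.6 and 35.4 CPM in NR3C2-OE and 47.5, 51.0 and 49.7 CPM in Control. The log2 fold change of the counts was -0.52 (SE 0.0537, 95% interval -0.65 to -0.39), or 0.697-fold, and the log2 ratio of the mean FPKM was -0.38. OXCT1 ranked 11 of 21509 by edgeR p and was not called after adjustment (edgeR adjusted p = 0.0946). DESeq2 gave it an adjusted p of 8.96e-11, in a test that called 328 genes in all, while over the other 14 alternatives the adjusted p from edgeR or limma ran from 0.0701 to 0.688. Leaving out any 1 library kept the log2 fold change between -0.55 and -0.50, with an edgeR adjusted p of 0.0928 to 0.226. OXCT1 was picked for description with this difference known, so its low p-value is not independent evidence.

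For the other genes of ketone body use the groups overlapped. ACAT1, the mitochondrial thiolase that splits acetoacetyl-CoA in the step after OXCT1, had 36.3, 33.3 and 32.9 FPKM in NR3C2-OE and 29.9, 37.0 and 31.5 in Control, with a log2 fold change of 0.06 (SE 0.0641) and an edgeR adjusted p of 0.848. BDH1, which interconverts beta-hydroxybutyrate and acetoacetate, had 4.93, 6.503 and 4.40 FPKM in NR3C2-OE and 4.97, 5.05 and 4.93 in Control, with a 95% interval of the log2 fold change from -0.46 to 0.51. The ratio of OXCT1 to ACAT1, both in FPKM, was 0.279, 0.300 and 0.341 in NR3C2-OE and 0.460, 0.360 and 0.438 in Control, without overlap. Of 12 such ratios between related members, this one (lower) and CPT2 to CPT1A (higher) did not overlap between the groups. For single genes, 9.38% of all tested genes did so on the higher side and 6.65% on the lower side in FPKM. The share among ratios of other genes was not computed. With OXCT1 as its numerator, the ratio to ACAT1 restates the OXCT1 difference. OXCT2, a close relative of OXCT1 known mainly from testis, was at 1.33 to 1.997 FPKM in NR3C2-OE and 1.49 to 1.70 in Control. OXCT1-AS1, an antisense transcript that shares exon sequence with OXCT1 in the GENCODE 29 annotation, was at 0.227 FPKM or less in every library.

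RefSeq places OXCT1 transcript starts at a pair of promoters that differ in base composition, shown here because the table gives OXCT1 as a single gene and does not separate its transcripts. The 250 bases before each start are shown 5′ to 3′ (RefSeq, GRCh38.p14), with CG dinucleotides in capitals. The upstream promoter holds 25 of them and the downstream promoter 2.
OXCT1 upstream promoter, chr5:41870426-41870675, minus strand: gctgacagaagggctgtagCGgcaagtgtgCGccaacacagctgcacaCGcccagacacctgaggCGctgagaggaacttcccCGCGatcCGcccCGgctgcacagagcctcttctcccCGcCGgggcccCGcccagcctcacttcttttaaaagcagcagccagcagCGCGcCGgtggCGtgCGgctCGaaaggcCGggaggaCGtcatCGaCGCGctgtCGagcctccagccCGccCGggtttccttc
OXCT1 downstream promoter, chr5:41843658-41843907, minus strand: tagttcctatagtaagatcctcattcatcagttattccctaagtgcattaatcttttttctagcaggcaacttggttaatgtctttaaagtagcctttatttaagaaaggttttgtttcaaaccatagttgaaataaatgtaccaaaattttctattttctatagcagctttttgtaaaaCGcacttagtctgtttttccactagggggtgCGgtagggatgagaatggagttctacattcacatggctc

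CG-rich promoters of the first kind were common among the 36 genes. The promoter table held 44 promoters of 33 of them (all but DECR1, ETFDH and OGDH), and the median promoter had 20.5 CG dinucleotides in the 250 bases before the start, where the median of all 35116 promoters was 11. IDH2 alone had no listed promoter with more than 5. On both strands of the 300-base windows, TCAAGGTCA, bound by oestrogen-related receptors, was in 0 of the 44 (0.353% of all promoters), and TGACGTCA, the cAMP response element, in 0 (1.85%). AGAACA, a single arm of the steroid receptor palindrome, was in 5 (11.4%, against 14.8% of all promoters), belonging to ETFB, HADH, PC and SUCLA2, and the full palindrome with a spacer of 3 bases was in 0 of the 44 and in 1 of the 35116. These matches describe letters in short windows only.

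The carnitine shuttle, which carries long-chain fatty acids into the mitochondrion, held some of the least abundant of the 36 genes. CPT1A, the outer-membrane carnitine palmitoyltransferase that limits the rate of entry, had 1.54, 1.43 and 1.27 FPKM in NR3C2-OE and 1.69, 1.62 and 1.36 in Control, the lowest level of the 36 genes, with a log2 fold change of -0.15 (SE 0.0889). CPT2, the matching enzyme of the inner membrane, had a mean of 4.21 ± 0.401 FPKM in NR3C2-OE and 3.87 ± 0.383 in Control. It shares exon sequence with the more abundant C1orf123 on the opposite strand (12.2 FPKM in NR3C2-OE and 11.1 in Control, log2 fold change 0.13). The FPKM ratio of CPT2 to CPT1A was 2.744, 3.24 and 3.00 in NR3C2-OE and 2.12, 2.66 and 2.740 in Control, which did not overlap but nearly touched. SLC25A20, the carnitine-acylcarnitine carrier, varied more among libraries of the same group than between the groups, with 5.29, 4.45 and 3.04 FPKM in NR3C2-OE and 3.46, 2.80 and 5.04 in Control. None of the 3 shuttle genes was called by edgeR (adjusted p 0.673 to 0.919), nor by DESeq2, and none had an unadjusted edgeR p below 0.05.

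The enzymes of the beta-oxidation cycle itself spanned more than an order of magnitude in level and differed little between the groups. ECHS1, the short-chain enoyl-CoA hydratase, was the most abundant of the 36 genes, with 116, 119 and 109.6 FPKM in NR3C2-OE and 112, 115 and 114 in Control. Its log2 fold change was -0.01, with a 95% interval from -0.12 to 0.11. ACADVL, the very-long-chain acyl-CoA dehydrogenase, had 95.8, 102 and 110.01 FPKM in NR3C2-OE and 115, 98.8 and 104 in Control. ACADM and ACADS, the medium- and short-chain dehydrogenases, had log2 fold changes of -0.06 (SE 0.0604) and -0.01 (SE 0.0818). ACADM shares exon sequence with RABGGTB on the same strand in GENCODE 29, and RABGGTB had a log2 fold change of -0.20 (edgeR adjusted p = 0.400).

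HADH, the short-chain hydroxyacyl-CoA dehydrogenase, had the highest log2 fold change of the 36, 0.24 (SE 0.121, edgeR adjusted p = 0.620). Its FPKM was 17.8, 17.9 and 18.0 in NR3C2-OE and 12.9, 17.04 and 16.4 in Control. The NR3C2-OE libraries were nearly identical, and Control library 1 lay well below the other 2 of its group. In CPM the groups overlapped (57.7 to 60.8 in NR3C2-OE and 41.5 to 58.4 in Control), and without that library the log2 fold change of HADH was 0.12.

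HADHA and HADHB encode the alpha and beta subunits of the mitochondrial trifunctional protein, which carries out the last steps of long-chain oxidation as a complex of both. HADHA had 66.9, 62.8 and 62.7 FPKM in NR3C2-OE and 60.6, 65.6 and 63.5 in Control, and HADHB had 59.4, 59.7 and 54.0 in NR3C2-OE and 56.1, 55.4 and 54.5 in Control. The FPKM ratio of HADHB to HADHA stayed between 0.862 and 0.950 in NR3C2-OE and between 0.844 and 0.927 in Control. Their log2 fold changes were 0.04 (SE 0.0595) and 0.02 (SE 0.0423). The genes lie head to head, with 306 bases between their RefSeq starts, and the 194 bases that fall in the 250 before both starts are shown on the plus strand, the direction of HADHB, with CG dinucleotides in capitals.
HADHA and HADHB shared promoter, chr2:26244689-26244882, plus strand: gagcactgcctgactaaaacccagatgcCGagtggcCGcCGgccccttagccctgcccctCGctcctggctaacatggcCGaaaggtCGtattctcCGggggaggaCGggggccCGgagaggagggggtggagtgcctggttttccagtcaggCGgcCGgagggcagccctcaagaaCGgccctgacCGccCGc

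ECI1, ECI2 and DECR1 are auxiliary enzymes that move or remove double bonds so that unsaturated fatty acids can pass through the cycle. ECI2, an enoyl-CoA isomerase of mitochondria and peroxisomes, had 75.1, 77.8 and 75.7 CPM in NR3C2-OE and 81.5, 85.6 and 84.0 CPM in Control. Its counts did not overlap between the groups, and its log2 fold change was -0.14 (SE 0.0431, edgeR adjusted p = 0.470). Its FPKM overlapped, with 40.0, 39.3 and 36.9 in NR3C2-OE and 39.5, 40.9 and 41.8 in Control. ECI1, the mitochondrial isomerase, had a log2 fold change of -0.01 (SE 0.0807). DECR1, the dienoyl-CoA reductase, was uneven within NR3C2-OE, at 15.4, 14.6 and 9.35 FPKM, against 11.1, 12.46 and 12.04 in Control, and its log2 fold change of 0.0020 had a 95% interval from -0.45 to 0.45.

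Electrons from the acyl-CoA dehydrogenases pass to the electron transfer flavoprotein, made of ETFA and ETFB, and from it through the dehydrogenase ETFDH to ubiquinone. ETFA and ETFB were close to each other in level, at 32.1 ± 4.23 and 35.0 ± 2.77 FPKM in NR3C2-OE and 28.4 ± 0.994 and 31.9 ± 4.54 in Control (SD, n = 3 each). ETFDH was far less abundant, with 2.80, 2.83 and 3.18 FPKM in NR3C2-OE and 3.35, 3.14 and 3.38 in Control. Its log2 fold change was -0.16 (SE 0.0865, edgeR adjusted p = 0.652), and 1 NR3C2-OE library reached into the Control range. ETFDH shares exon sequence on the opposite strand with the more abundant PPID (18.8 FPKM in NR3C2-OE and 20.3 in Control) and C4orf46 (11.4 and 11.5). PPARGC1A, the coactivator PGC-1alpha that drives mitochondrial biogenesis and fatty acid oxidation genes, had 11.3, 11.8 and 11.2 FPKM in NR3C2-OE and 10.7, 11.4 and 8.97 in Control, with a log2 fold change of 0.07 (95% interval -0.07 to 0.22).

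**Figure D3:**
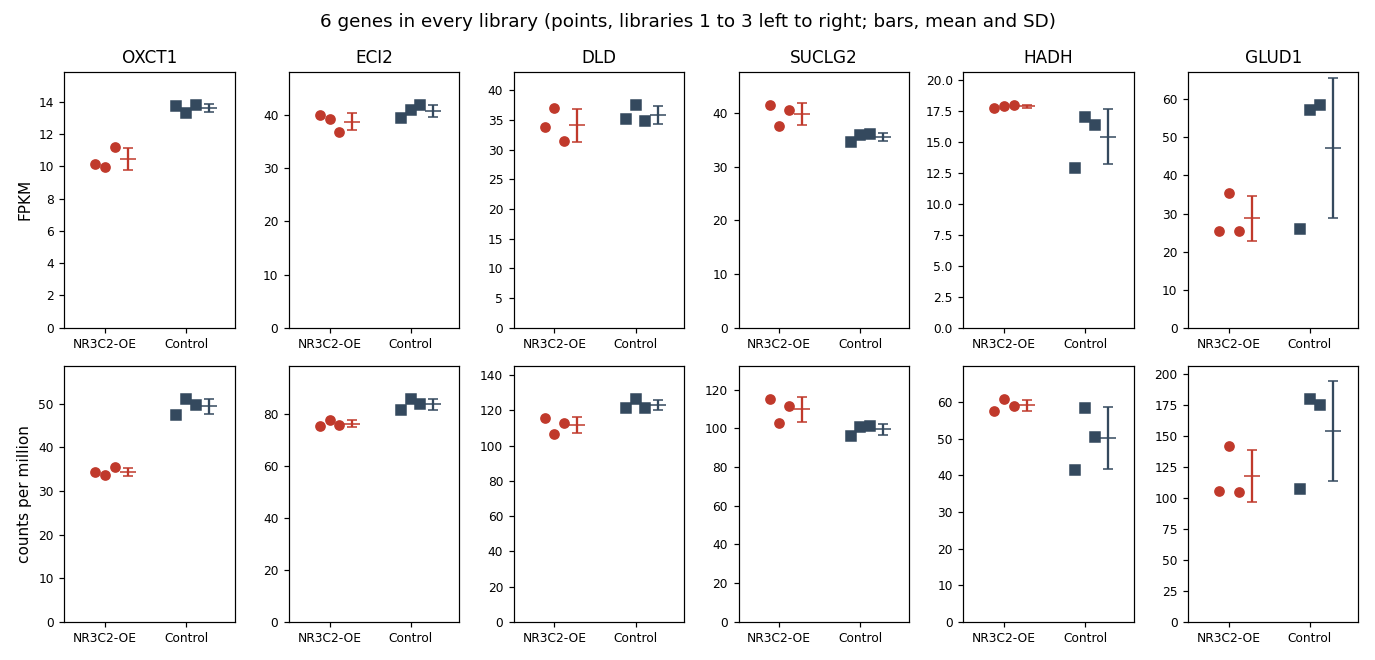
FPKM (upper row) and CPM (lower row) of OXCT1, ECI2, DLD, SUCLG2, HADH and GLUD1 in every library, NR3C2-OE left of Control, with mean and SD beside the points and axes from 0. OXCT1 is lower in all 3 NR3C2-OE libraries on both scales, the groups of ECI2 and DLD overlap in FPKM and not in CPM, SUCLG2 is higher on both scales (1.10-fold in the counts), and GLUD1 is split within Control.

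In the TCA cycle the entry enzyme is CS, citrate synthase, whose activity, not measured here, is often used as a measure of mitochondrial content. Its RNA had 62.6, 59.4 and 60.7 FPKM in NR3C2-OE and 59.2, 61.1 and 72.7 in Control, with a log2 fold change of -0.07 (SE 0.0654). Control library 3 was the highest. IDH2, the NADP-dependent isocitrate dehydrogenase of mitochondria, had 36.9 ± 3.73 FPKM in NR3C2-OE and 34.7 ± 0.5001 in Control. The NAD-dependent enzyme is built from IDH3A, IDH3B and IDH3G, and its catalytic subunit IDH3A was the scarcest, at 10.3 ± 1.67 FPKM in NR3C2-OE and 11.7 ± 1.52 in Control, where IDH3B stood at 59.3 ± 2.43 and 57.2 ± 0.726 FPKM (SD, n = 3 each). The FPKM ratio of IDH3B to IDH3A was 4.75, 6.88 and 5.91 in NR3C2-OE and 4.22, 5.46 and 5.20 in Control, and overlapped between the groups. IDH3B and IDH3G had log2 fold changes of 0.03 and 0.01, with standard errors of 0.0417 and 0.0615.

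OGDH, DLST and DLD form the oxoglutarate dehydrogenase complex, and DLD, its dihydrolipoamide dehydrogenase, also serves the pyruvate and branched-chain complexes. DLD had 116, 107 and 113 CPM in NR3C2-OE and 122, 126 and 121 CPM in Control, without overlap, and a log2 fold change of -0.14 (SE 0.0474, edgeR adjusted p = 0.484). Its FPKM, 33.9, 37.0 and 31.4 in NR3C2-OE and 35.2, 37.5 and 34.8 in Control, overlapped. DLD shares exon sequence with LAMB1, on the opposite strand and more abundant, whose log2 fold change was 0.10 in the counts and -0.16 as the log2 ratio of mean FPKM. OGDH, the decarboxylating subunit, had a log2 fold change of -0.12 (SE 0.0669), with 68.8, 80.3 and 78.3 CPM in NR3C2-OE and 82.3, 83.4 and 80.8 CPM in Control. DLST, the succinyltransferase, gave opposite signs on the 2 scales, -0.18 (SE 0.182) in the counts and 0.12 as the log2 ratio of mean FPKM. NR3C2-OE library 2 had 118 CPM of DLST against 196 and 185 CPM in the other 2 of its group and 182 to 193 CPM in Control, and without it the log2 fold change was 0.02.

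Succinyl-CoA synthetase pairs the alpha subunit SUCLG1 with SUCLG2, which makes GTP, or with SUCLA2, which makes ATP. SUCLG2 had 41.4, 37.5 and 40.6 FPKM in NR3C2-OE and 34.6, 35.8 and 35.97 in Control. The groups did not overlap in FPKM or in CPM (103 to 115 in NR3C2-OE and 96.2 to 101 in Control), and the log2 fold change was 0.14 (SE 0.0562, edgeR adjusted p = 0.528). SUCLA2 had 13.2, 17.2 and 14.4 FPKM in NR3C2-OE and 14.3, 13.7 and 14.2 in Control. The GTP-forming subunit was thus the more abundant transcript in every library, with an FPKM ratio of SUCLG2 to SUCLA2 of 3.14, 2.17 and 2.81 in NR3C2-OE and 2.42, 2.62 and 2.54 in Control, which overlapped between the groups. The shared subunit SUCLG1 had 53.5 ± 5.13 FPKM in NR3C2-OE and 50.9 ± 1.34 in Control.

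The promoter of SUCLG2, the only gene of the 36 that was higher at an unadjusted p below 0.05, is shown as the 250 bases before its RefSeq start, with its 18 CG dinucleotides in capitals.
SUCLG2 promoter, chr3:67654613-67654862, minus strand: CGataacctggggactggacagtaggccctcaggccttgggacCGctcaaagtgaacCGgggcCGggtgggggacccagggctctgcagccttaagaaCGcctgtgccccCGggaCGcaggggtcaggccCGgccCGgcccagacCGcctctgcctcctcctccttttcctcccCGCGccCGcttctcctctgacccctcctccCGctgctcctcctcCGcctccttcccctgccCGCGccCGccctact

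FH, fumarase, and MDH2, the mitochondrial malate dehydrogenase, close the cycle. FH had 115, 119 and 116 CPM in NR3C2-OE and 124, 125 and 121 CPM in Control, which did not overlap, with a log2 fold change of -0.08 (SE 0.0397, edgeR adjusted p = 0.610). Its FPKM, 38.6 to 45.0 in NR3C2-OE and 40.0 to 43.9 in Control, overlapped. MDH2 had 52.1 ± 4.80 FPKM in NR3C2-OE and 54.0 ± 2.10 in Control (SD, n = 3 each). Among the 6 genes whose CPM did not overlap between the groups, the log2 fold changes other than that of OXCT1 were at most 0.14 in size.

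Of the enzymes that feed the cycle from amino acids and pyruvate, GLUD1 varied most. GLUD1, glutamate dehydrogenase, had 25.3, 35.5 and 25.3 FPKM in NR3C2-OE and 26.0, 57.2 and 58.4 in Control. Control libraries 2 and 3 stood apart from the other 4 libraries, and Control library 1 lay within the NR3C2-OE range. In CPM the same libraries were highest, with 105, 142 and 105 in NR3C2-OE and 107, 179 and 175 in Control. The log2 fold change was -0.39 (SE 0.223, edgeR adjusted p = 0.658), with a range of -0.60 (without Control library 1) to -0.27 (without Control library 2) when 1 library was left out. GLUD1 shares exon sequence with SHLD2 on the opposite strand and has 5 annotated pseudogene copies, 2 of them in the table, which together averaged 0.411 FPKM in NR3C2-OE and 0.257 in Control, and the near-identical GLUD2 was at 0.476 FPKM or less. GOT2, the mitochondrial aspartate aminotransferase, had 69.0, 69.3 and 64.7 FPKM in NR3C2-OE and 72.7, 68.1 and 69.0 in Control (log2 fold change -0.07, SE 0.0471). PC, pyruvate carboxylase, which supplies oxaloacetate for the cycle and for gluconeogenesis, was among the least abundant, at 1.89, 2.24 and 1.88 FPKM in NR3C2-OE and 1.49, 1.92 and 1.71 in Control, with a 95% interval of the log2 fold change from -0.19 to 0.38.

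The 2 deposited scales gave similar changes for most of these genes. The log2 ratio of mean FPKM and the log2 fold change of the counts differed by less than 0.1 for 30 of the 36 genes, and they had opposite signs for 4, of which only DLST exceeded 0.1 on either scale. GLUD1 (-0.72 in FPKM and -0.39 in counts), DLST, DECR1, ACADM, OXCT1 and PC were the 6 that differed by more. BDH1 had the widest spread of FPKM per CPM among libraries, 0.320, 0.506 and 0.352 in NR3C2-OE and 0.303, 0.364 and 0.509 in Control, although its log2 values differed little between the scales. Exon sequence was shared with another annotated gene for 16 of the 36, and for 7 of them a sharing gene reached 10 FPKM; the sources used here do not say whether the authors' counting used strand.

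**Figure D4:**
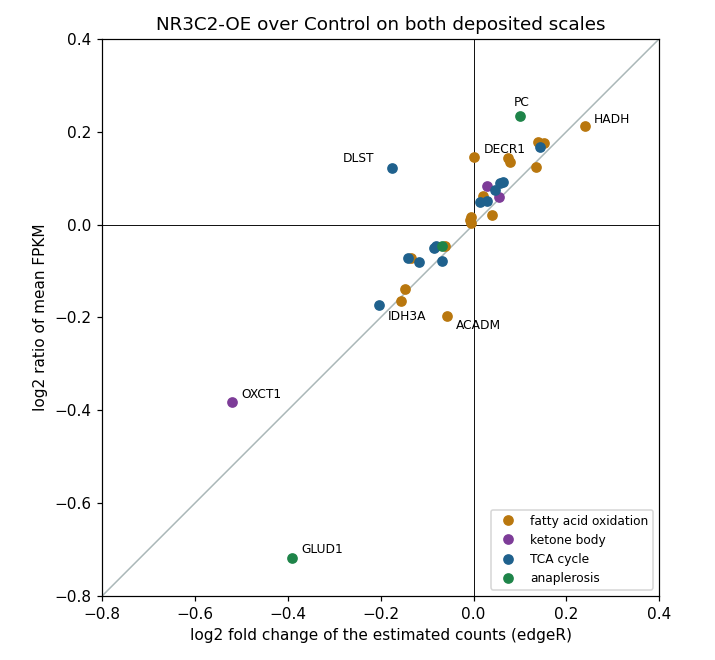
Log2 ratio of mean FPKM (vertical) against log2 fold change of the estimated counts (horizontal), NR3C2-OE over Control, 1 point per gene with the line of equality. Most points lie near the line within 0.25 of 0 on both axes; OXCT1 is negative on both, GLUD1 is further from 0 in FPKM, and DLST has opposite signs.

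Beyond the 36, 142 further genes of these pathways were listed in 6 groups, of which 131 were tested, and 0 were called by edgeR. Their signs leaned positive, with 82 positive and 49 negative and a median log2 fold change of 0.048, against 0.00071 for all tested genes. At an unadjusted edgeR p below 0.05, 11 were higher and 3 lower in NR3C2-OE, against 4.43% and 4.76% of all tested genes. Both directions together made 10.7%, against 9.19%. The FPKM groups did not overlap for 17 on the higher and 5 on the lower side, against 9.38% and 6.65%. This lean was not tested. DESeq2 called 1 of the further genes, on the higher side, where it called 0.697% of all tested genes. That gene was MPC2, a subunit of the carrier that brings pyruvate into the mitochondrion, with 84.7, 86.4 and 83.4 FPKM in NR3C2-OE and 68.2, 70.9 and 72.0 in Control. Every NR3C2-OE library of MPC2 lay above every Control library, and its log2 fold change was 0.25 (SE 0.0420, edgeR adjusted p = 0.252, DESeq2 adjusted p = 0.00311). Among the other 25 tested genes of the TCA cycle and pyruvate entry, PDK1, a kinase that switches off pyruvate dehydrogenase, and SDHA, the flavoprotein of succinate dehydrogenase, had log2 fold changes of 0.17 (SE 0.0455) and 0.14 (SE 0.0557), and 4 of the 26 in all were higher and 0 lower at an unadjusted edgeR p below 0.05.

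The counts of further genes per list at an unadjusted edgeR p below 0.05 were small, and they stand against 4.43% of all tested genes on the higher side and 4.76% on the lower side. Of 38 tested further genes of fatty acid oxidation, 2 were higher and 3 lower at that p. ACSL3, a long-chain acyl-CoA synthetase, had 26.7 ± 1.76 FPKM in NR3C2-OE and 22.03 ± 2.17 in Control (log2 fold change 0.25, SE 0.0692). The peroxisomal genes SCP2, a sterol carrier and thiolase, and ABCD3, a fatty acid transporter, had log2 fold changes of -0.23 (SE 0.0696) and -0.11 (SE 0.0427), and the FPKM of SCP2 leaned the other way (25.3 ± 3.14 and 22.5 ± 2.49). Of 19 regulators, 2 were higher and 0 lower, PPARA, the receptor that activates fatty acid oxidation genes (4.15 ± 0.234 FPKM in NR3C2-OE and 3.50 ± 0.181 in Control, log2 fold change 0.20), and PPARGC1B, a relative of PPARGC1A (0.28, SE 0.115). PPRC1, the third member of that coactivator family, had a log2 fold change of -0.10 (SE 0.0560).

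Of 9 further ketone body genes, 0 were lower at an unadjusted edgeR p below 0.05, and ACSS1, a mitochondrial acetyl-CoA synthetase, had a log2 fold change of -0.12 (SE 0.0828). Of 22 genes of anaplerosis, glutamate use and gluconeogenesis, 1 was higher, NNT, the proton-driven NADPH-making transhydrogenase (log2 fold change 0.15, SE 0.0422), with SLC25A13 at 0.17 and ME2 at -0.26 next by p. Of 17 genes of branched-chain amino acid breakdown and lipoate synthesis, 1 was higher, AUH, an enzyme of leucine breakdown (8.24 ± 0.488 FPKM in NR3C2-OE and 6.72 ± 0.712 in Control, log2 fold change 0.35), with ALDH6A1 at 0.15 and LIPT2 at 0.28. In each of these lists 0 genes passed edgeR's test after adjustment (adjusted p 0.389 or more for every gene named from them here other than MPC2).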

How the data were processed

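HK2 RNA of 3 NR3C2-OE and 3 Control libraries was analysed. The submitters' processing notes name cutadapt 1.2.1. The aligner, counter, genome build and gene models were not given in the sources used here. The authors deposited 1 table with FPKM values and estimated counts, which are whole numbers; low values favour multiples of 4 (8694 values of 4 against 5772 of 3), so they may overstate the number of independent fragments. No value column was left unmapped. Ensembl identifiers (36466, all matched to a symbol) gave the gene names; 736 genes without one held 2.88% to 2.98% of the counts and stayed in.

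Counts were tested with edgeR 4.0.16 (glmQLFit, glmQLFTest; R 4.3.3) after filterByExpr and TMM scaling, with group as the only term, two-sided. SE came from the F statistic, and 95% intervals use 6.36 degrees of freedom. The steps were first tested on simulated data. Alternatives were 6 fits without 1 library, the replicate number as a block, DESeq2 1.42.0 size factors or Wald test (on the same filtered genes), no filter, 50 counts in 3 libraries, limma 3.58.1 (voom, or trend on log2(FPKM + 1) and log2(FPKM + 0.1)), and counts divided by 4. The rule for named genes took every member by role, gave values per library for the 8 with the smallest edgeR p, the most abundant, OXCT1, CPT1A, PPARGC1A, CS and PC, and took up to 3 genes by p from each further list; GLUD2, OXCT2, OXCT1-AS1, RABGGTB, LAMB1 and other members given per library were added after their values were seen. The members and lists were chosen with earlier results of these data known. Promoters come from RefSeq (GRCh38.p14), exon sharing from GENCODE 29. Protein sequences were not used here. Results for some listed genes are not reported here.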

Additional observations from a re-analysis of the deposited data

How the results depend on the processing

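The number of these 36 genes called was 0 in all alternatives, from edgeR or limma, other than the DESeq2 Wald test, which called 1 (OXCT1). Over all genes, 6 were called in the analysis as reported, 5 to 18 without 1 library, 0 with the replicate number as a block, 328 with the DESeq2 Wald test and 11 with limma on log2(FPKM + 0.1). The members at an unadjusted p below 0.05 numbered 4 as reported, 2 to 5 without 1 library, 3 with the block and 2 with limma on log2(FPKM + 1) or log2(FPKM + 0.1). Their median log2 fold change was -0.030 to 0.041 without 1 library and -0.0076 with the block. The further pathway genes called numbered 0, and 1 with the DESeq2 Wald test (MPC2). OXCT1 kept its sign in all 15 alternatives, and its log2 fold change was -0.36 and -0.38 with limma on log2(FPKM + 1) and log2(FPKM + 0.1). Of 540 recomputed member values 33 changed sign, in 13 members whose log2 fold change as reported was at most 0.18 in size. On log2(FPKM + 1) and log2(FPKM + 0.1) the values were 0.00062 and 0.00043 for ACADS, 0.0154 and 0.0156 for ECHS1, 0.0067 and 0.0069 for ECI1, 0.112 and 0.114 for DLST, and 0.163 and 0.169 for SCP2. DECR1 was -0.021 with the replicate block, -0.0098 without a filter and -0.030 with limma-voom. Without 1 library the ranges were SLC25A20 -0.031 to 0.45, ACADVL -0.13 to 0.015, ACADS -0.063 to 0.042, HADHA -0.0092 to 0.079, HADHB -0.0043 to 0.035, ECHS1 -0.024 to 0.028, ECI1 -0.054 to 0.047, DECR1 -0.17 to 0.18, BDH1 -0.16 to 0.21, IDH3G -0.036 to 0.059, DLST -0.31 to 0.019, SUCLG1 -0.039 to 0.11 and SUCLA2 -0.00036 to 0.10. The cause was not tested. With 3 libraries a group, no exact permutation test of a single value can go below p = 0.1, and the lowest estimated count of a member in any library was 501. The labels do not say that same-numbered libraries are pairs, so the numbers were not taken as pairs. Across genes, the deviations of same-numbered libraries from their group means had r of 0.019, 0.0049 and -0.016. All 9 combinations lay within -0.057 to 0.054. Computed over all tested genes at once, these r values cannot decide whether the libraries were paired.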
